A study of Mus musculus with 18 samples.

Results

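The macrophage and myeloid genes described here are 36 names that cover the macrophage lineage, its receptors, complement C1q, the lysosome and oxidase, Fc receptors and polarity genes. They were found by their gene symbol in the array's annotation, among probe sets assigned to 1 gene, out of 19938 genes measured that way. Of the 36 names 35 were measured, each by 1 probe set, since Emr1 is an older symbol of Adgre1. By role they comprise 9 genes of the lineage and the CSF1 axis, 6 pattern recognition and scavenger receptors, 4 genes of apoptotic cell uptake and lipid handling, 3 C1q chains, 4 genes of the lysosome and oxidase, 4 Fc receptors and ITAM adaptors, and 5 polarity genes. Of these, 29 lay above the 40th percentile of gene means (log2 of 7.37) and 6 were dim: Cd163, Marco, Tnf, Il1b, Il10 and Clec7a.

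The RNA came from mammary tumours of mice that carry the neu (ErbB2) proto-oncogene under the MMTV promoter, which is active in the mammary epithelium, and was measured on 18 single-colour Affymetrix arrays. All groups carry this transgene; they differ in Snai2 (WT or KO), in the cohort (parous, that is having borne litters, or nulliparous) and in whether the mouse had metastasis. The transgene came from an FVB/N line and the Snai2 null allele from a B6;129S1 line, and the null allele is a germline one, so host cells of the tumour carry it too. After 2 near-identical arrays were averaged there were 17 samples: WT parous with metastasis (n = 4), WT nulliparous with metastasis (n = 4), KO parous with metastasis (n = 2), KO parous without metastasis (n = 3), KO nulliparous without metastasis (n = 3) and KO nulliparous with metastasis (n = 1). No WT tumour lacked metastasis, and ages are not given in the sources used here.

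Tissue macrophages depend on the growth factor CSF1 acting on its receptor CSF1R, and the transcription factor PU.1, encoded by Spi1, directs much of the myeloid gene programme. They engulf antibody-coated and dying cells through Fc receptors and receptors such as MERTK and AXL, and they are the main source of the C1q chains that start the classical complement pathway. In mammary tumours macrophages are a common infiltrating cell, and their state is often described between a classical side (Nos2, Tnf, Il1b) and an alternative side (Arg1, Mrc1, Cd163, Il10). In RNA from whole tumours, fewer macrophages and less of an RNA per macrophage cannot be told apart.

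Promoter sequences of 25 of the 35 genes were matched in RefSeq (GRCm38.p6), each from 250 bases before the transcription start to 50 bases after it. The core letters of the PU.1 motif, GAGGAA, searched on both strands (TTCCTC on the other), occurred in 17 of these 25 promoters (68.0%) and in 28.3% of the 27025 promoters in that table. The longer form GAGGAAGT (ACTTCCTC on the other strand), which contains the core, occurred in 2 of the 25 (8.0%) and in 3.28% of all. A match of letters is a description of the window and was not tested as a binding site. The promoters of Ctss and C1qc are shown because they hold the longer form, and those of Mrc1 and Itgam because they hold the most core matches, 3 each; capitals mark each core match. The match of C1qc begins 193 bases before the start, and those of Mrc1 begin 180, 167 and 35 bases before it. Of the promoters of genes that followed Csf1r closely across tumours (Pearson r of at least 0.7, described further on), 13 of 18 held a core match, and of the others 4 of 7.
Ctss, chr3:95526536-95526835, plus strand: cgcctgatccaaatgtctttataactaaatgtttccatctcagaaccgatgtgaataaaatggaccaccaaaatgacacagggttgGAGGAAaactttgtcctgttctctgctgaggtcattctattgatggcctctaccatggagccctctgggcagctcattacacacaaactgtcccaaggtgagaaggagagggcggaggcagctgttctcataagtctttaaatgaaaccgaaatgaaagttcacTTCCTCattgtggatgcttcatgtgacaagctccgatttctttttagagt
C1qc, chr4:136892865-136893164, minus strand: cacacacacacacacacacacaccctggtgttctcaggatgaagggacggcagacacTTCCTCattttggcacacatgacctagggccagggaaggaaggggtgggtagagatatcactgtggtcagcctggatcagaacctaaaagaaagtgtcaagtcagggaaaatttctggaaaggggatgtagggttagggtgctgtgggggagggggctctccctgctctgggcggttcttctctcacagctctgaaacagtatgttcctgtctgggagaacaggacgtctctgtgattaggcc
Mrc1, chr2:14229164-14229463, plus strand: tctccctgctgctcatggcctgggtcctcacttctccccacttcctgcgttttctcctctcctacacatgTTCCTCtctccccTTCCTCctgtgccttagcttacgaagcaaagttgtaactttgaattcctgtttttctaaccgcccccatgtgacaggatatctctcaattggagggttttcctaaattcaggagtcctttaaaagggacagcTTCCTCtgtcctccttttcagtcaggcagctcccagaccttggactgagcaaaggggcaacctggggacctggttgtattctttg
Itgam, chr7:128062390-128062689, plus strand: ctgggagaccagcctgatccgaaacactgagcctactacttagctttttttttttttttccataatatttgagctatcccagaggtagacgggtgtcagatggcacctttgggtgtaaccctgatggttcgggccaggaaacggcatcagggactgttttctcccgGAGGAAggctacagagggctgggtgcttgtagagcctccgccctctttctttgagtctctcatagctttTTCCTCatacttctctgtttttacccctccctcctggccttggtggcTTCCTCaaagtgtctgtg

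Array medians lay between 7.60 and 7.67 on the log2 scale, and an array gives no read depth, so the number of arrays limits the precision. Snai2 was dim and lay between 6.28 and 6.79 in KO and between 6.68 and 7.09 in WT samples, with 7 of 9 KO samples below the lowest WT sample. The luminal epithelial markers Epcam (12.62 to 12.83 over all samples) and Krt18 (12.78 to 13.59) were bright in every tumour, all labelled luminal. The macrophage markers Csf1r, Adgre1 and Cd68 were measured above the 40th percentile of gene means. KO parous without metastasis replicate 2 stood apart from the other 2 of its group in the myeloid genes. The medians of the comparisons that set its group against another are given with and without it. Most single-gene values are given only with it. The labels call the arrays biological replicates, although 2 of them were near identical and were averaged. The limma p-values set a difference against the spread between these tumours.

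The myeloid genes varied more between tumours than most genes. Over the 17 samples the SD of a member's log2 value had a median of 0.48 (from 0.09 for Il10 to 1.16 for Arg1), against 0.17 for all genes, and 33 of 35 members had an SD above that median. Arg1, the arginase of alternatively activated macrophages, ran from 8.28 to 11.91, and Cd14, the co-receptor for bacterial lipopolysaccharide, from 8.31 to 12.22. Probe sets differ in brightness, so tumours were compared by each gene's deviation from its own mean over the 17 samples.

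The 4 WT nulliparous tumours had the highest group mean, a deviation of 0.34 ± 0.18 (SD, n = 4). Their mean deviations over the 35 genes were 0.46, 0.08, 0.38 and 0.45, and between 26 and 32 of the 35 genes lay above their own median in each of them. In WT parous tumours the deviations were -0.08, 0.32, -0.44 and -0.31, a mean of -0.13 ± 0.33 (SD, n = 4), where replicate 2 alone lay in the range of the nulliparous group. Those of KO nulliparous tumours without metastasis were 0.01, -0.59 and -0.09, and those of KO parous tumours with metastasis were -0.12 and -0.32.

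A single tumour set the spread among KO parous mice without metastasis. Their deviations were -0.33, 0.62 and -0.32, the second being the highest of all 17 samples. In that tumour, replicate 2, 30 genes lay above their own median and 16 of the 35 reached their highest value of any sample, among them Csf1r, Tyrobp, Lyz2 and Cd14. Arg1, in contrast, had its lowest value there. Beside the myeloid genes, this tumour had a mean deviation of 0.95 over the 10 fibroblast markers, 0.85 over the 9 endothelial markers and 0.57 over the 11 neutrophil markers; their part in its myeloid values was not tested. At the other end, KO nulliparous without metastasis replicate 2 held the lowest value of 17 of the 35 genes. The lone KO nulliparous tumour with metastasis had a deviation of 0.27, with 30 genes above their median.

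**Figure D1:**
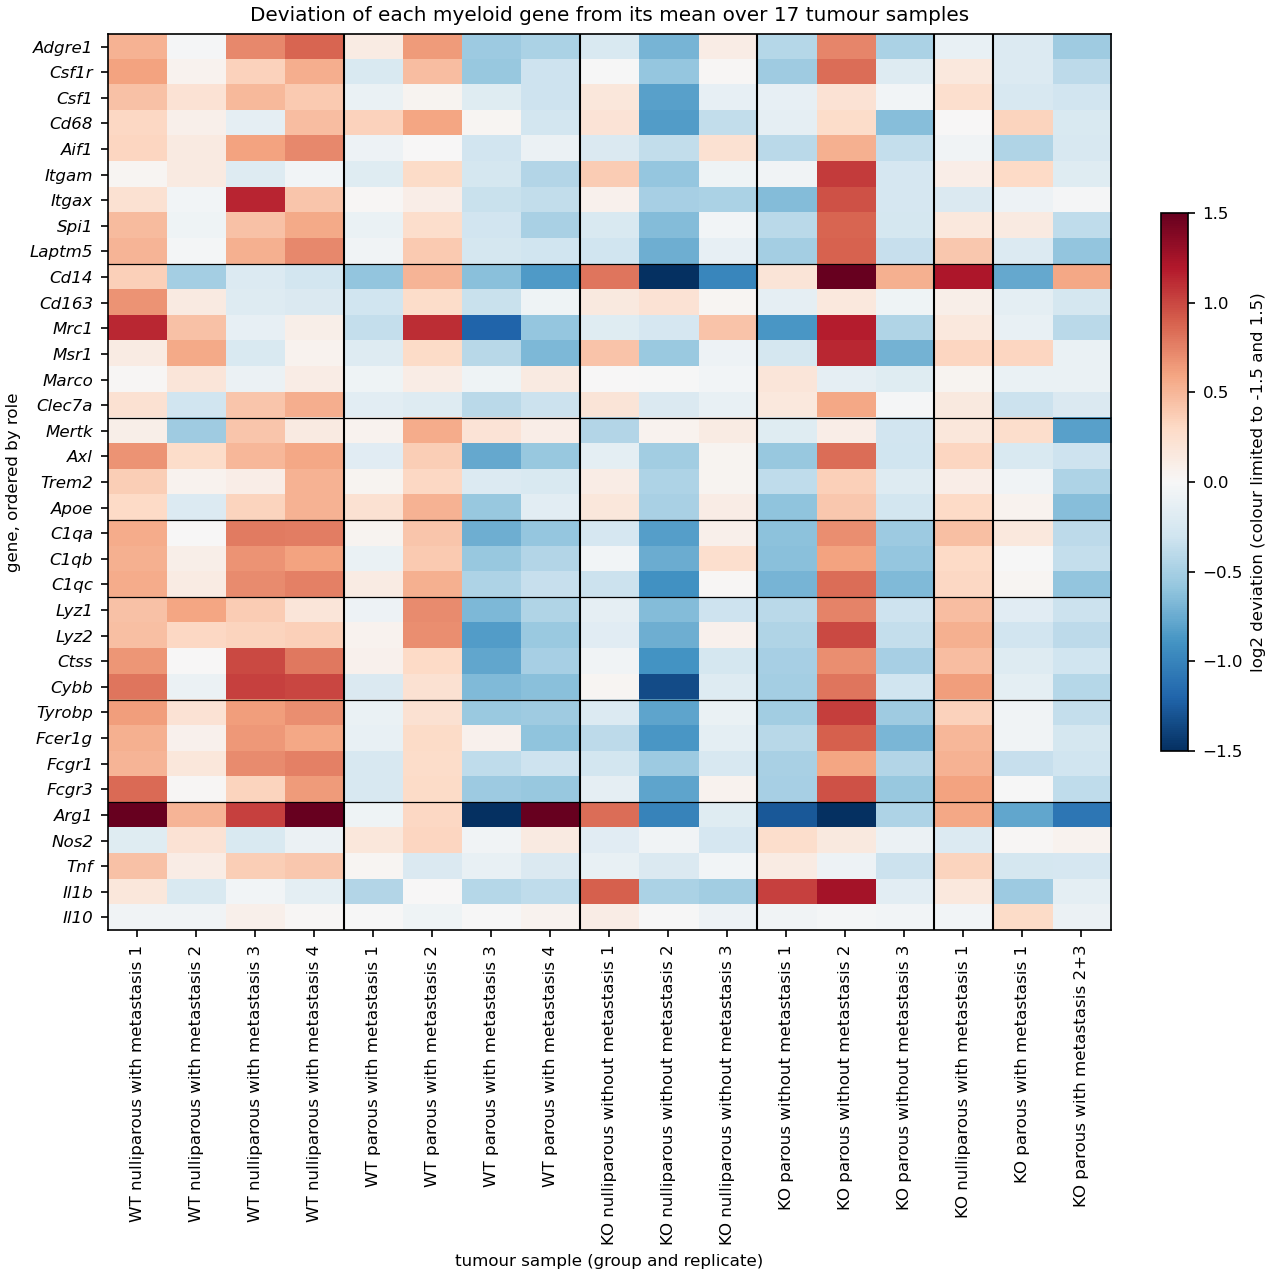
Deviation of each of the 35 myeloid genes (rows, by role) from its mean over 17 tumour samples (columns, by group), as a log2 difference shown by colour and limited to -1.5 and 1.5. Between 26 and 32 genes lie above their own median in each WT nulliparous tumour, in WT parous replicate 2, in the lone KO nulliparous tumour with metastasis and in KO parous without metastasis replicate 2, where Arg1 is deep blue.

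Most of these genes moved together from tumour to tumour. Csf1r was taken as the reference gene, and each of the other 34 members was set against it over the 17 samples, so all points share the same arrays. The median Pearson r was 0.84, against -0.10 over all genes, and 22 of 34 members reached an r of at least 0.7, against 3.55% of all genes. With each group's mean subtracted, 23 members were at or above 0.7, though not all the same genes. Csf1 (0.68) and Clec7a (0.64) fell below that limit, and Cd14 (0.74), Msr1 (0.72) and Itgam (0.81) rose above it. Csf1r read 10.55 in KO parous without metastasis replicate 2, against a group mean of 9.75. How far the covariation within groups rests on that tumour was not tested. After Benjamini-Hochberg adjustment over the 34 relations, 26 members had a positive r with an adjusted p under 0.05 (permutation test). Between all 595 pairs of members the median r was 0.61 and the mean 0.53, against a mean of 0.02 over all genes.

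Axl, a receptor tyrosine kinase that recognises dying cells, followed Csf1r most closely, with r = 0.97 and rho = 0.96 (permutation p = 1e-05 for each, the smallest that 100000 resamples can give, 2.62e-05 and 2.43e-05 when adjusted over the 34 relations). Tyrobp, the ITAM adaptor of many myeloid receptors, had r = 0.94 and rho = 0.92 with the same p-values. Leaving out the 2 samples farthest from the median of Csf1r (KO parous without metastasis replicate 2 and WT nulliparous replicate 1), r was 0.95 for Axl and 0.91 for Tyrobp. Fcgr3 (0.94), C1qb, Spi1, Lyz2 and Laptm5 (0.93 each), Adgre1 and Trem2 (0.92 each) were close behind. Cd68 stood lower, with r = 0.58 and rho = 0.54 (permutation p = 0.0135 and 0.0265, adjusted 0.0184 and 0.036), and 0.55 without the 2 samples. Cd14 had r = 0.56 and rho = 0.48 (permutation p = 0.0184 and 0.0507, adjusted 0.0241 and 0.062), which rested on the 2 samples, since r was 0.34 without them.

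The genes of the classical and alternative sides, which include the scavenger receptors Mrc1 and Cd163, followed Csf1r less closely, apart from Mrc1. Of them Tnf, Il1b, Il10 and Cd163 are dim, and Nos2 lies just above that limit, at percentile 40.1. Whether this lowers their r was not tested. The r of Arg1 was 0.43 and its rho 0.48 (permutation p = 0.0862 and 0.0525, adjusted 0.101 and 0.062); without the same 2 samples its r was 0.75, so its value depended on these samples. In 1 of them, KO parous without metastasis replicate 2, Csf1r was at its highest and Arg1 at its lowest. Tnf had r = 0.50 and rho = 0.48 (permutation p = 0.04 and 0.0496, adjusted 0.0504 and 0.062), 0.53 without the 2 samples, and 0.06 with group means subtracted. Il1b stood at 0.38, and at 0.07 without the 2 samples, and Cd163 at 0.49, and at 0.26 without them. Outside these sides, Mertk was also low, at 0.34. The inducible nitric oxide synthase Nos2 (-0.13), the regulatory cytokine gene Il10 (-0.08) and the scavenger receptor Marco (-0.01) had r values near 0. Over all tumours Nos2 ran only from 7.12 to 7.70 and Il10 from 5.43 to 5.80. Mrc1, the mannose receptor, was the exception among the genes of the classical and alternative sides, with r = 0.85 and rho = 0.85 (permutation p = 4e-05 for each), and 0.76 without the 2 samples.

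Markers of other cells were set against Csf1r in the same way, 15 in all. The pan-leukocyte gene Ptprc had r = 0.91 and rho = 0.90 (permutation p = 1e-05 for each). Col1a1 of fibroblasts stood at 0.70 with a rho of 0.62 (permutation p = 0.00165 and 0.01, and r = 0.58 without the 2 samples), Pdgfrb at 0.67 (0.49) and Pecam1 of endothelium at 0.65 (0.49), so stromal markers moved with the myeloid genes in part. Stat2, of the interferon pathway, stood at 0.71. The epithelial genes Epcam (-0.14) and Krt18 (-0.22) and the neutrophil gene S100a8 (0.06) did not follow it. The 10 genes outside the list with the highest r over the 17 samples were Cyth4 and Cysltr1 (0.97), Inpp5d, Hpgds and Nfam1 (0.96), Tmem119 (0.95), and Milr1, Nckap1l, Slc9a9 and Pld4 (0.94).

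**Figure D2:**
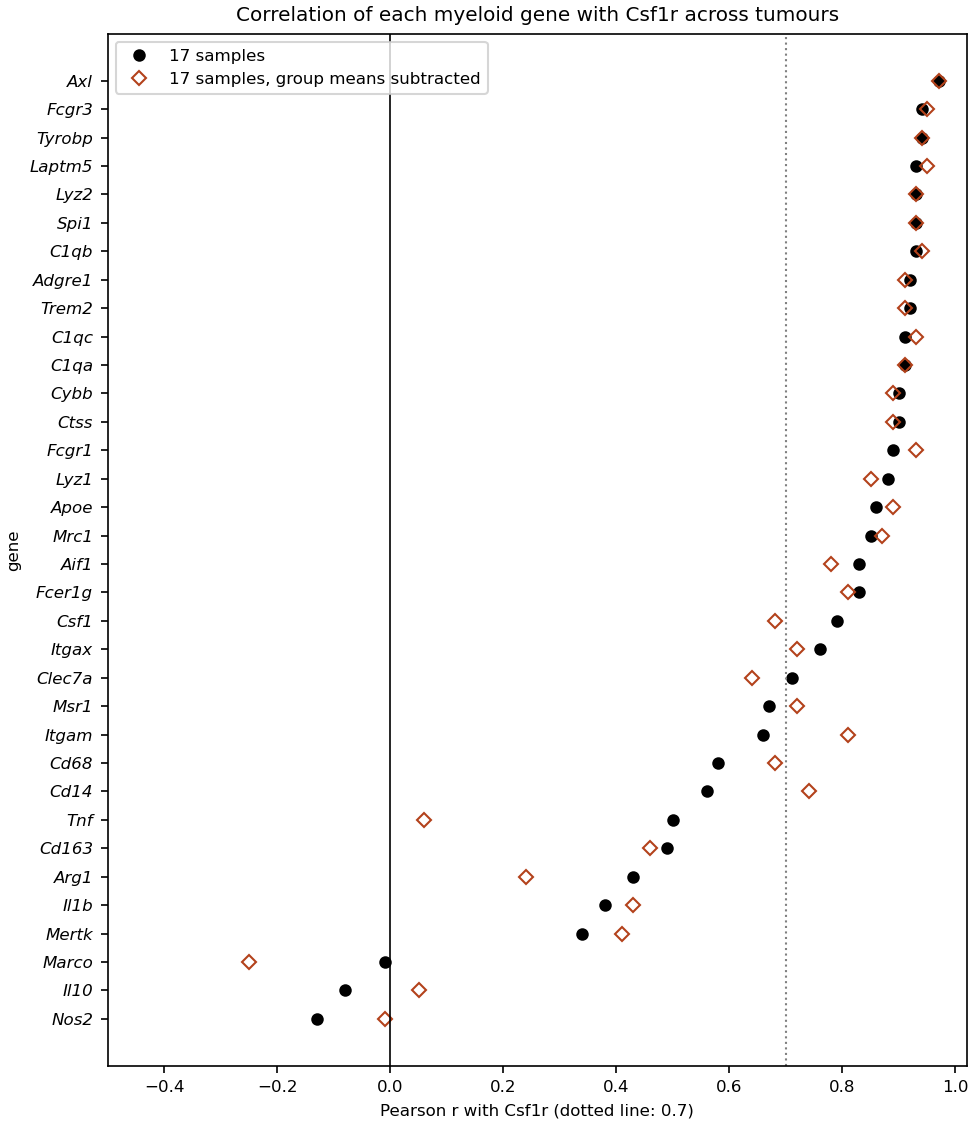
Pearson r with Csf1r (horizontal axis) of each of the other 34 myeloid genes (vertical axis) over 17 samples, before (filled points) and after (open diamonds) the group means were subtracted; the dotted line marks 0.7. There were 22 filled points at or above 0.7, and Nos2, Il10 and Marco lay near 0.

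**Figure D3:**
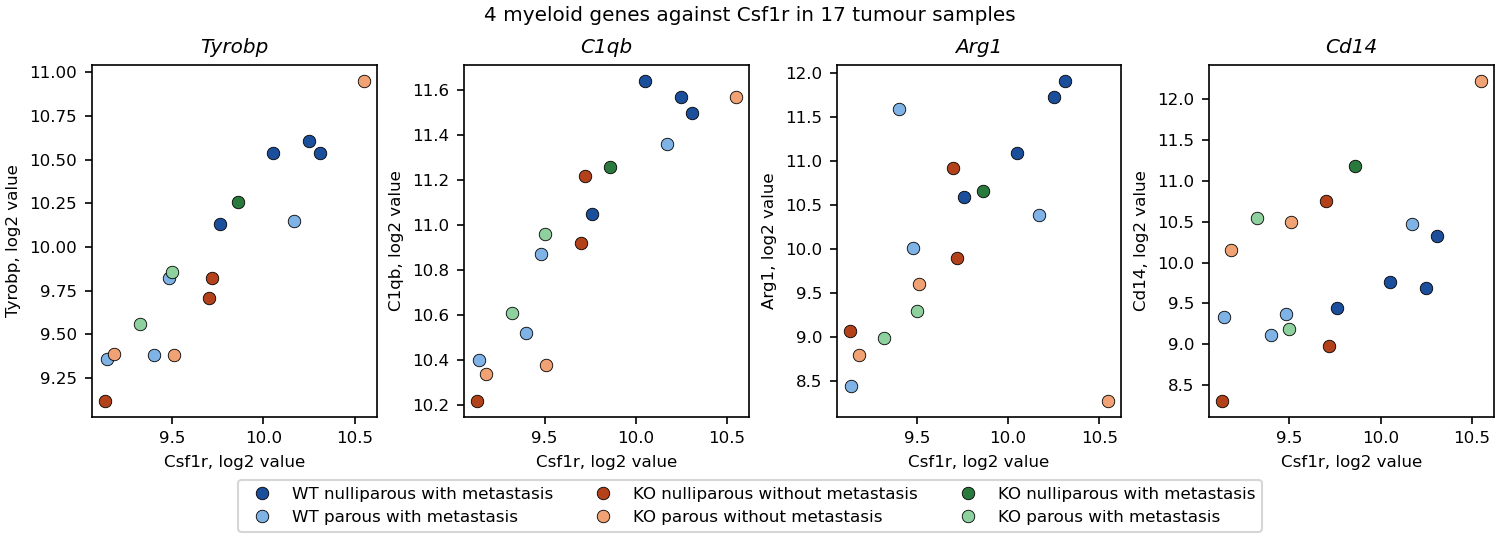
Log2 values of Tyrobp, C1qb, Arg1 and Cd14 (vertical axes, each its own scale) against Csf1r (horizontal axis) in 17 tumour samples, coloured by group. Tyrobp (r = 0.94) and C1qb (r = 0.93) follow Csf1r, whereas 1 KO parous tumour without metastasis has the highest Csf1r and Cd14 with the lowest Arg1.

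The first comparison asked how parity relates to these genes in WT mice with metastasis, 4 parous against 4 nulliparous tumours. Of the 35 genes 33 had a difference (parous minus nulliparous) below 0, with a median of -0.52, against a median of -0.01 and 51.7% below 0 over all genes. With limma and an adjusted p under 0.05 as the threshold, 1 of 35 fell, Tnf, and 0 rose (0 at an unadjusted p under 0.05); of all genes 1.86% fell. The count was 0 with the mean of Csf1r, Adgre1 and Cd68 as a covariate, which took the median to -0.16. These 3 genes are members themselves, so a smaller median was built into that fit. The count was also 0 with dim genes left out, 2 with only the compared groups fitted and 8 with array weights. At an unadjusted p under 0.05, 12 of 35 (34.3%) were lower in parous tumours, against 9.81% of all genes, and in 3 genes (Tnf, Csf1 and Aif1) the groups did not overlap, which held for 7.63% of all genes. The count of 12 lay between 7 (without nulliparous replicate 3) and 18 (without nulliparous replicate 2) when a sample was left out, and the median between -0.64 and -0.43.

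Tnf encodes the inflammatory cytokine TNF. It read 7.07, 6.82, 6.93 and 6.82 in parous and 7.48, 7.15, 7.41 and 7.44 in nulliparous WT tumours, so every parous value lay below every nulliparous one. Its log2 difference was -0.46 (SE 0.10, limma adjusted p = 0.0342). The means were 7.37 ± 0.15 (SD, n = 4) for nulliparous tumours and 6.91 ± 0.12 (SD, n = 4) for parous ones. The gene is dim on this array, where differences are compressed. Its call was lost without parous replicates 2, 3 or 4 or nulliparous replicates 1, 3 or 4 (adjusted p from 0.0615 to 0.112), with a difference between -0.53 and -0.42 throughout.

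Among lineage genes, Csf1r read 9.48, 10.17, 9.14 and 9.40 in parous and 10.31, 9.76, 10.05 and 10.25 in nulliparous WT tumours. The ranges overlapped through parous replicate 2, and the difference was -0.55 (SE 0.28, adjusted p = 0.372). Adgre1, which encodes the F4/80 antigen, read 9.01, 9.53, 8.35 and 8.41 against 9.41, 8.87, 9.61 and 9.76, a difference of -0.59 (SE 0.32, adjusted p = 0.412). Cd68, a lysosomal glycoprotein of phagocytes, read 10.33, 10.58, 10.02 and 9.71 against 10.30, 10.07, 9.86 and 10.45, a difference of -0.01 (SE 0.26, adjusted p = 0.991). The ligand gene Csf1 read 9.22, 9.36, 9.14 and 9.01 against 9.76, 9.54, 9.80 and 9.71, without overlap, and stood at -0.52 (SE 0.17, adjusted p = 0.125). Aif1, which encodes the calcium-binding protein IBA1, did not overlap either, at 7.26 ± 0.13 (SD, n = 4) in the parous group against 7.82 ± 0.26 (SD, n = 4) (-0.56, SE 0.20, adjusted p = 0.176). All 9 lineage genes lay below 0, and 0 passed the threshold (2 with an unadjusted p under 0.05).

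The C1q chains shared a pattern. C1qa read 9.73, 10.11, 8.96 and 9.11 in parous and 10.25, 9.69, 10.47 and 10.45 in nulliparous WT tumours, a difference of -0.74 (SE 0.34, adjusted p = 0.301). C1qb read 10.87, 11.36, 10.40 and 10.52 against 11.50, 11.05, 11.64 and 11.57 (-0.66, SE 0.30, adjusted p = 0.303). C1qc read 10.18, 10.59, 9.60 and 9.71 against 10.61, 10.18, 10.77 and 10.81 (-0.57, SE 0.34, adjusted p = 0.462). In each chain parous replicate 2 lay above nulliparous replicate 2, so the groups overlapped. The 3 genes are neighbours on chromosome 4, whose genes had a median difference of -0.40 in this comparison; Laptm5 lies there too. The 4 members on chromosome 4 had a median of -0.61, the 4 on chromosome 2 (chromosome median -0.17) one of -0.38, and the 27 on other chromosomes one of -0.52.

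Among Fc receptors and adaptors, Tyrobp read 9.82, 10.15, 9.36 and 9.38 in parous and 10.54, 10.13, 10.54 and 10.61 in nulliparous WT tumours (-0.78, SE 0.31, adjusted p = 0.231). Parous replicate 2 again lay above nulliparous replicate 2, the lowest of its group. Fcgr1, the high-affinity IgG receptor, stood at -0.70 (SE 0.22, adjusted p = 0.123), Fcgr3 at -0.73 (SE 0.33) and Fcer1g at -0.55 (SE 0.30). Fcgr3 has close paralogs, so its probes may read more than 1 gene. Cybb, the catalytic subunit of the phagocyte NADPH oxidase, read 9.71, 10.16, 9.27 and 9.30 against 10.74, 9.85, 10.96 and 10.94, a difference of -1.01 (SE 0.37, adjusted p = 0.176). Ctss, the cathepsin that processes antigen in endosomes, stood at -0.84 (SE 0.32, adjusted p = 0.197). The lysozyme paralogs Lyz1 and Lyz2, neighbours on chromosome 10 whose probes may read both, each stood at -0.52. Of these 8 genes 0 passed the threshold by limma (5 with an unadjusted p under 0.05).

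Among receptors for dying cells, Axl stood at -0.80 (SE 0.29, adjusted p = 0.176), with 9.39, 9.93, 8.80 and 8.99 in parous and 10.24, 9.84, 10.06 and 10.15 in nulliparous WT tumours, while Mertk stood at 0.20 (SE 0.24, adjusted p = 0.765). The lipid receptor Trem2 (-0.28, SE 0.19) and apolipoprotein E gene Apoe (-0.24, SE 0.28) lay between them. Among pattern receptors Clec7a, which binds fungal glucans, stood at -0.49 (SE 0.17, adjusted p = 0.163), the scavenger receptor Msr1 at -0.38 (SE 0.35), Cd14 at -0.23 (SE 0.56) and Marco at -0.02 (SE 0.08).

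Arg1 had the largest difference of any member in this comparison and also the largest spread. It read 10.01, 10.39, 8.45 and 11.59 in parous and 11.91, 10.59, 11.10 and 11.73 in nulliparous WT tumours, a difference of -1.22 (SE 0.58, adjusted p = 0.324). Parous replicate 4, low in most myeloid genes, was near the top of all samples for Arg1. Without a sample the difference lay between -1.72 and -0.67, the latter without parous replicate 3. Mrc1 read 8.07, 9.53, 7.23 and 7.85 against 9.56, 8.87, 8.30 and 8.51 (-0.64, SE 0.50, adjusted p = 0.597). Cd163, the haemoglobin scavenger receptor, read 6.31, 6.89, 6.28 and 6.55 against 7.28, 6.74, 6.41 and 6.39 (-0.20, SE 0.18, adjusted p = 0.666). Il10 stood at 5.51 ± 0.05 (SD, n = 4) and 5.51 ± 0.07 (SD, n = 4).

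On the classical side, Nos2 read 7.55, 7.70, 7.33 and 7.51 in parous and 7.19, 7.59, 7.15 and 7.29 in nulliparous WT tumours, a difference of 0.22 (SE 0.11, adjusted p = 0.352), the only positive one besides Mertk. Il1b, the interleukin 1 beta gene, read 6.69, 7.14, 6.70 and 6.75 against 7.30, 6.90, 7.09 and 6.98 (-0.25, SE 0.33, adjusted p = 0.789). The mean deviation of the 4 alternative genes minus that of the 3 classical genes was 0.75, 0.22, 0.16 and 0.33 in nulliparous and -0.11, 0.37, -0.60 and 0.39 in parous WT tumours, so the groups overlapped.

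Lists of other cell types and states were read in the same comparison. All 13 measured interferon response genes lay below 0 and 10 fell (median -2.07, called count between 3, without nulliparous replicate 1, and 9 with a sample left out), with a list mean of 10.53 to 11.09 in nulliparous and 8.22 to 9.51 in parous WT tumours. All 10 fibroblast markers lay below 0 (median -0.69, 0 called by limma and 3 with an unadjusted p under 0.05; 2 called without parous replicate 2, and a median of -0.37 without parous replicate 3), with list means of 9.39 to 10.33 against 7.89 to 10.02. The pan-leukocyte list had a median of -0.55 with 5 of 6 below 0, and 2 lymphocyte markers fell, Nkg7 and Ncr1 out of 12 for T and NK cells (0 without nulliparous replicate 1 and 5 without nulliparous replicate 2). All 8 adipocyte markers lay below 0 (median -0.55) and 1 fell, Lipe (0 without nulliparous replicate 1, with a median of -0.20), and 7 of 8 mast cell markers lay below 0 and 1 fell, Cma1 (also 0 without nulliparous replicate 1). All 8 skeletal muscle markers lay below 0 (median -0.66, 0 called by limma and 0 with an unadjusted p under 0.05). This rested on nulliparous replicate 1, where the mean deviation of these markers was 2.9. In the other nulliparous tumours it was -0.49, -0.81 and -0.08, against -0.75, 0.51, -0.71 and -0.59 in parous ones. Of 7 genes that respond to sample handling 5 lay below 0 (median -0.23, 0 called by limma and 3 with an unadjusted p under 0.05). All 8 dendritic cell markers lay below 0 (median -0.14, 0 called by limma and 1 with an unadjusted p under 0.05). So did all 6 B cell markers (median -0.1, 0 called by limma and 2 with an unadjusted p under 0.05). The endothelial list had a median of -0.25 (9 of 9 below 0) and the luminal epithelial list one of -0.06 (6 of 10 below 0). Neutrophil markers had a median of 0.05 (3 of 11 below 0), with list means of 6.25 to 6.57 in nulliparous and 6.28 to 6.52 in parous tumours. Their part in the myeloid differences was not tested.

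**Figure D4:**
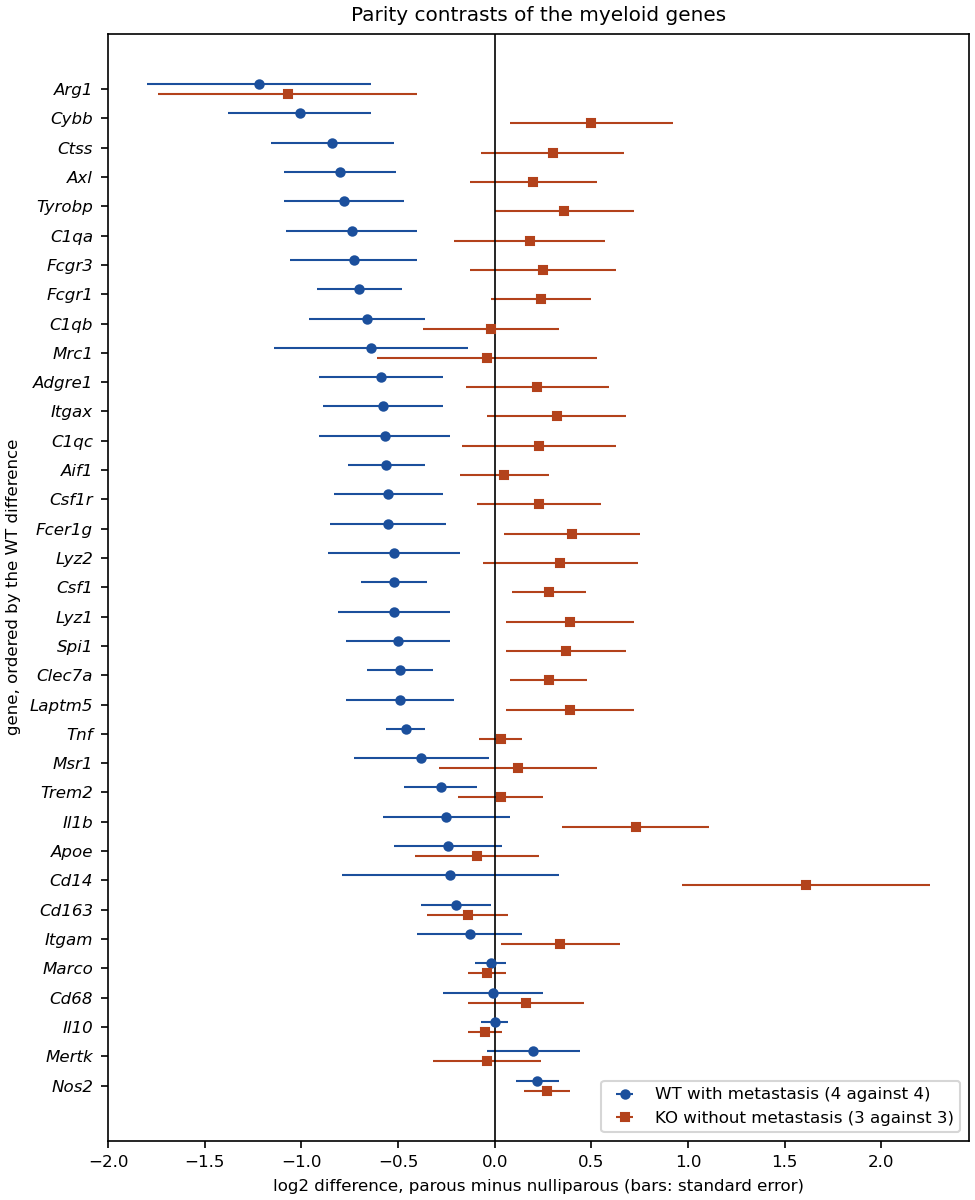
Log2 difference, parous minus nulliparous, of the 35 myeloid genes (vertical axis, ordered by the WT value) in WT mice with metastasis (circles, 4 against 4) and in KO mice without metastasis (squares, 3 against 3); bars are standard errors. In WT 33 of 35 points lie below 0 and in KO 27 lie above 0, and Arg1 lies below 0 in both.

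Genes that act with the members were read from lists by pathway, with none of them members. Of 10 complement genes beyond C1q all lay below 0 in parous WT tumours and 1 fell, Cfb, the factor B of the alternative pathway (-1.95, SE 0.36, limma adjusted p = 0.0192). Cfb stood at 9.75 ± 0.45 (SD, n = 4) in nulliparous tumours against 7.80 ± 0.59 (SD, n = 4). Of 7 monocyte genes 1 fell, Plac8 (-1.26, SE 0.29, adjusted p = 0.0433), which stood at 8.16 ± 0.21 (SD, n = 4) in nulliparous tumours against 6.90 ± 0.54 (SD, n = 4). The Cfb call was lost without parous replicates 3 or 4 or nulliparous replicates 1 or 4 (adjusted p from 0.0625 to 0.0685), and the Plac8 call with any of the 8 samples left out but parous replicate 2 (adjusted p from 0.0621 to 0.136 where lost).

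In the other pathway lists 0 genes passed in parous WT tumours, and the gene with the smallest p is named for each. Over all 19938 genes, 1955 were lower and 1273 higher in parous tumours at an unadjusted p under 0.05 by limma. Of 11 genes of Fc and ITAM signalling 11 lay below 0 (median -0.27; the kinase Fgr at -0.27, SE 0.10, adjusted p = 0.175), with 3 at an unadjusted p under 0.05 by limma. Of 9 macrophage transcription factors 9 lay below 0 (median -0.32; Irf8 at -0.39, SE 0.15, adjusted p = 0.203; 3 at an unadjusted p under 0.05). Of 11 genes of alternative activation and resident macrophages 11 lay below 0 (median -0.32; Lyve1 at -0.57, SE 0.26, adjusted p = 0.307; 1 at an unadjusted p under 0.05). Of 16 inflammatory activation genes 13 lay below 0 (median -0.22). At an unadjusted p under 0.05 by limma 7 were lower and 1 was higher, the cytokine gene Il18 (0.97, SE 0.24, adjusted p = 0.057). Of 4 oxidase genes 3 lay below 0 (Rac2 at -0.52, SE 0.17, adjusted p = 0.128), with 2 lower at that limit. Of 15 lysosomal enzymes 10 lay below 0 (Grn at -0.26, SE 0.09, adjusted p = 0.134), with 2 lower and 1 higher at that limit. Lipid-laden macrophage genes were split, 5 of 11 below 0 (median 0.17, Plin2 at -0.93, SE 0.26, adjusted p = 0.0828), with 2 lower and 1 higher at that limit. The other colony-stimulating factors and receptors were split too, 3 of 7 below 0 (Csf2rb at 0.80, SE 0.50, adjusted p = 0.488), with 0 at that limit.

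In KO mice without metastasis, 3 parous against 3 nulliparous tumours, 0 of 35 genes passed, as did 0% of all genes by limma. Of the members 27 lay above 0 and 8 below, with a median of 0.23 against 0.01 over all genes, and 1 had an unadjusted p under 0.05, against 3.29% of all genes. Without parous replicate 2 the median was -0.13 and 26 members lay below 0, so the direction rested on that tumour.

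Cd14 was the gene with the unadjusted p under 0.05. It read 10.16, 12.22 and 10.50 in parous and 10.76, 8.31 and 8.98 in nulliparous KO tumours, which overlap, and stood at 1.61 (SE 0.64, unadjusted p = 0.0264 and adjusted p = 1.0 by limma); without a sample it lay between 0.98 and 2.31. Il1b read 8.15, 8.38 and 6.97 against 8.03, 6.66 and 6.61 (0.73, SE 0.38), and its high and low tumours occurred in both groups. Cybb stood at 0.50 (SE 0.42), and at 0.07 at the lowest with a sample left out. Csf1r read 9.18, 10.55 and 9.51 against 9.70, 9.13 and 9.72 (0.23, SE 0.32), Adgre1 8.46, 9.62 and 8.41 against 8.66, 8.19 and 9.0 (0.22, SE 0.37), and Cd68 9.85, 10.26 and 9.35 against 10.19, 9.15 and 9.62 (0.16, SE 0.30).

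The C1q chains and Tyrobp showed the same single high tumour. C1qa read 9.07, 10.38 and 9.14 in parous and 9.44, 8.86 and 9.76 in nulliparous KO tumours (0.18, SE 0.39). C1qb read 10.34, 11.57 and 10.38 against 10.92, 10.22 and 11.22 (-0.02, SE 0.35), and C1qc 9.36, 10.89 and 9.39 against 9.73, 9.15 and 10.08 (0.23, SE 0.40). Tyrobp read 9.39, 10.95 and 9.38 against 9.71, 9.12 and 9.82 (0.36, SE 0.36). In all 4 genes parous replicates 1 and 3 lay below nulliparous replicates 1 and 3.

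Arg1 had the most negative difference, with 8.80, 8.28 and 9.61 in parous and 10.92, 9.07 and 9.90 in nulliparous KO tumours (-1.07, SE 0.67, adjusted p = 1.0). Without a sample it lay between -1.51 and -0.59. Mrc1 read 7.55, 9.61 and 7.98 against 8.25, 8.17 and 8.85 (-0.04, SE 0.57), and Cd163 6.47, 6.77 and 6.55 against 6.75, 6.82 and 6.64 (-0.14, SE 0.21). Nos2 read 7.64, 7.52 and 7.29 against 7.21, 7.32 and 7.12 (0.27, SE 0.12, adjusted p = 1.0), and Tnf 7.16, 6.96 and 6.71 against 6.92, 6.82 and 7.0 (0.03, SE 0.11). Il10 stood at 5.47 ± 0.02 (SD, n = 3) and 5.53 ± 0.10 (SD, n = 3). Alternative minus classical deviations were -1.06, -0.56 and -0.06 in parous and 0.02, -0.02 and 0.32 in nulliparous KO tumours, so the parous values lay below the nulliparous ones; with 7 genes behind them these values were not tested.

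**Figure D5:**
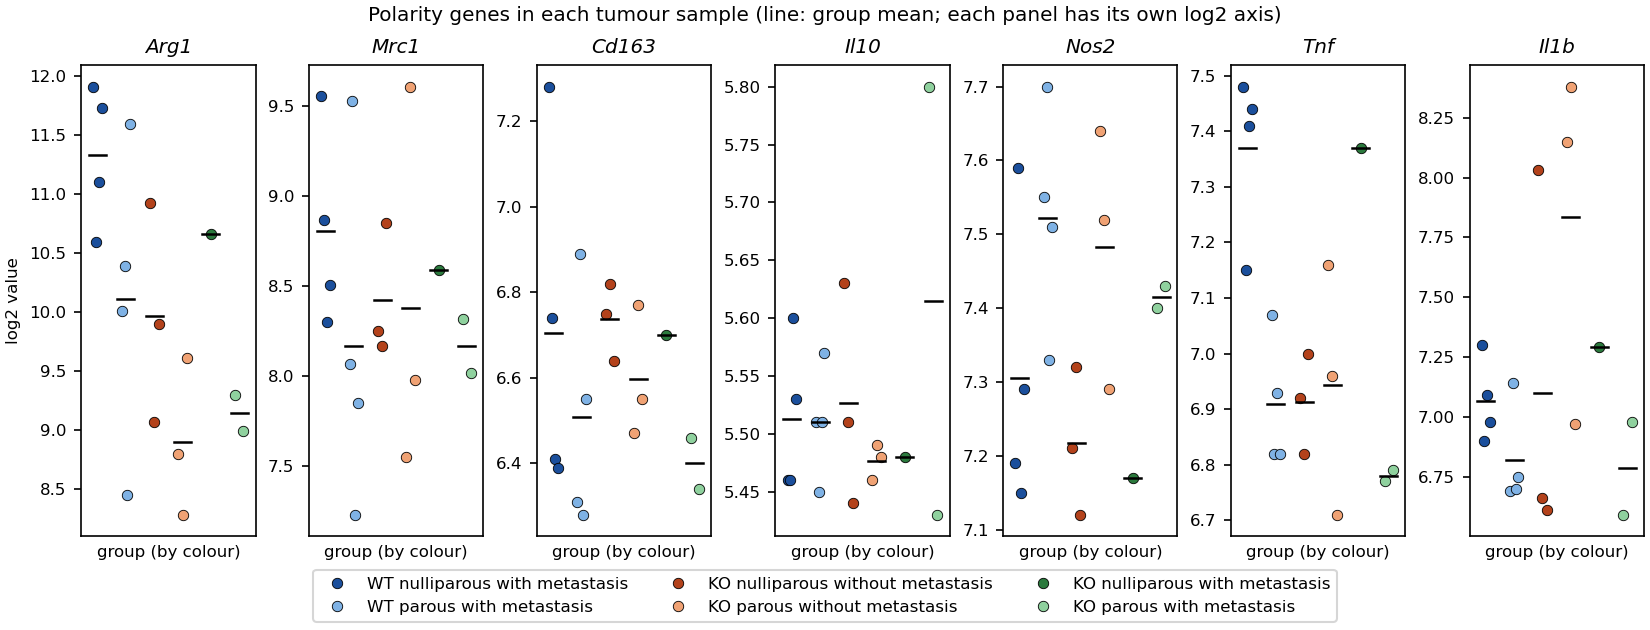
Log2 values (vertical axes, each panel its own scale) of the alternative genes Arg1, Mrc1, Cd163 and Il10 and the classical genes Nos2, Tnf and Il1b in each tumour sample, with 1 colour per group and a line at the group mean. Tnf separates the WT nulliparous tumours (7.15 to 7.48) from the WT parous ones (6.82 to 7.07), and the spread of Arg1 runs from 8.28 to 11.91.

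Whether the parity difference itself differed between KO and WT was tested as KO parity minus WT parity, in which metastasis status changes together with genotype and the 2 cannot be told apart. By limma 0 of 35 genes passed, as did 0% of all genes. Of the members 32 lay above 0, with a median of 0.80 against 0.02 over all genes, and 9 (25.7%) had an unadjusted p under 0.05, against 9.64% of all genes. The median was 0.43 without KO parous without metastasis replicate 2, and the count of 9 lay between 4 (without KO nulliparous without metastasis replicate 2) and 18 (without WT parous replicate 2). Cd14 stood at 1.84 (SE 0.85), Cybb at 1.51 (SE 0.56, adjusted p = 0.415), Ctss at 1.14 (SE 0.49), Tyrobp at 1.14 (SE 0.48) and Tnf at 0.48 (SE 0.15, adjusted p = 0.357, the smallest of any member). Below 0 were Mertk (-0.24, SE 0.37), Il10 (-0.05, SE 0.11) and Marco (-0.01, SE 0.13). Arg1, the most negative member of both parity comparisons, stood at 0.16 (SE 0.89). In the pathway lists Cfb stood at 2.13 (SE 0.55, adjusted p = 0.288) and Plac8 at 1.24 (SE 0.45, adjusted p = 0.409).

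Genotype was compared directly among parous mice with metastasis, KO (n = 2) against WT (n = 4). By limma 0 of 35 genes passed, as did 0% of all genes, and 0 had an unadjusted p under 0.05, against 5.73% of all genes. Of the members 23 lay below 0 (KO minus WT), with a median of -0.10 (-0.03 over all genes), which was 0.07 without WT parous replicate 2 and 0.04 without the averaged KO replicates 2 and 3. Arg1 read 9.30 and 8.99 in KO and 10.01, 10.39, 8.45 and 11.59 in WT tumours (-0.97, SE 0.71). Mertk read 9.37 and 8.29 against 9.15, 9.66, 9.30 and 9.20 (-0.50, SE 0.30), a value set by the averaged KO replicates 2 and 3, without which it was 0.04. Laptm5, a lysosomal membrane protein of leukocytes, stood at -0.34 (SE 0.34).

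Of the 12 members above 0 in that comparison, the largest were Msr1 (0.35, SE 0.43), Cd14 (0.29, SE 0.68) and Itgam, the integrin chain CD11b (0.21, SE 0.33). The value of Cd14 rested on the averaged KO replicates 2 and 3 (10.54), since KO replicate 1 read 9.19 against a WT mean of 9.57. Itgam also turned below 0 without the higher KO tumour. Csf1r read 9.50 and 9.32 in KO tumours, within the WT range (-0.14, SE 0.34), as did Adgre1 with 8.69 and 8.36 (-0.30, SE 0.40) and Cd68 with 10.32 and 9.76 (-0.12, SE 0.32). C1qa (9.85 and 9.29), C1qb (10.96 and 10.61), C1qc (10.09 and 9.46) and Tyrobp (9.86 and 9.56) lay within the WT range as well, except for the lower C1qc value. Their differences were within 1 SE of 0, for example 0.10 (SE 0.41) for C1qa, -0.25 (SE 0.42) for C1qc and 0.03 (SE 0.38) for Tyrobp.

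The additive fit over all 17 samples, KO (n = 9) minus WT (n = 8) with parity and metastasis status as terms, gave the same counts: 0 of 35 genes and 0% of all genes passed, and 0 members had an unadjusted p under 0.05 by limma, against 4.44% of all genes. Of the members 30 lay below 0, with a median of -0.11 (-0.03 over all genes), which ran from -0.23 (without the lone KO nulliparous tumour with metastasis) to -0.02 (without the averaged KO replicates 2 and 3). Arg1 stood at -0.87 (SE 0.53), Adgre1 at -0.47 (SE 0.32) and Aif1 at -0.37 (SE 0.21). Cd14 (0.57, SE 0.63), Msr1 (0.27, SE 0.33) and Itgam (0.15, SE 0.26) were the largest on the other side. Their adjusted p was 0.999 in each case.

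Metastasis was compared among KO parous mice, with (n = 2) against without (n = 3). By limma 0 of 35 genes passed, as did 0% of all genes, and 2 had an unadjusted p under 0.05 (5.71%), against 4.04% of all genes. Il1b read 6.59 and 6.98 with and 8.15, 8.38 and 6.97 without metastasis (-1.05, SE 0.42, adjusted p = 0.967), and the groups overlapped narrowly. Clec7a read 6.53 and 6.63 against 7.01, 7.43 and 6.83 (-0.51, SE 0.22, adjusted p = 0.967), without overlap. Such separation was common with groups this small. Of the 35 members 3 were lower and 0 higher without overlap, and of all 19938 genes 2000 were lower and 880 higher. Cd14 stood at -1.10 (SE 0.72), with 9.19 and 10.54 against 10.16, 12.22 and 10.50. The largest values above 0 were those of Arg1 (0.25, SE 0.75), Cd68 (0.22, SE 0.34) and Il10 (0.14, SE 0.10). None of them kept its sign with every sample left out in turn. Without replicate 1 of the tumours with metastasis Il10 stood at -0.05 and Cd68 fell below 0. Arg1 fell below 0 without replicate 2 of the tumours without metastasis. The median over the 35 genes was -0.19 (-0.03 over all genes), and 0.12 without replicate 2 of the tumours without metastasis.

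The lone KO nulliparous tumour with metastasis entered no direct comparison. It read 9.86 for Csf1r, 8.78 for Adgre1, 10.14 for C1qa, 10.26 for Tyrobp, 10.66 for Arg1, 7.37 for Tnf and 11.18 for Cd14. Its Tnf value lay inside the range of the WT nulliparous tumours and above every other KO tumour, and its Cd14 was the second highest of all 17 samples.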

How the data were processed

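The authors deposited log2 expression values of 35556 probe sets on 18 arrays (total RNA extracted with Trizol and labelled with a whole-transcript kit, per the labels' protocols). Per the submitters' processing notes they used oligo and RMA, whose versions are not given in the sources used here. Its quantile step removes a shift that all genes share, and differences of dim genes are compressed. By GEO's platform annotation, 21789 probe sets had 1 gene, 1621 several and 12146 none, and the brightest 1-gene probe set was kept per gene (19938 genes). A further 3 probe sets that name Itgam together with Rpl35 were left out.

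KO parous with metastasis replicates 2 and 3 differed with an SD of 0.102 over 10252 genes, against 0.285 for the next closest of 153 pairs, and were averaged to 1 sample. Tests were moderated linear models, 2-sided (lmFit, then eBayes, limma 3.58.1, run under R 4.3.3), on 6 group means (11 residual degrees of freedom) or an additive fit, with Benjamini-Hochberg adjustment over all genes and a threshold of 0.05. Same-numbered replicates of the groups compared deviated with correlations between -0.37 and 0.40, and the main fits treated samples as unpaired. Differently numbered replicates were not set beside them, so these values cannot settle whether the numbers pair samples. Correlations used SciPy 1.17.1 with 100000 resamples. Fits were tested on simulated data, where between 93% and 98% of 200 genes changed by a log2 of 2 were recovered. Between 6 and 13 unchanged genes were called per comparison. Smaller changes were not simulated, so the share of them that would be recovered is not known. Genes were named by rule: the markers and polarity genes, members past the threshold, the 3 largest rises and falls per comparison, and passing or leading genes of each pathway list. The members, lists and rules were chosen with earlier results of these data known. Alternatives changed the probe set rule, dim genes, normalization, averaging, the samples in the fit, array weights and the replicate block, took the Csf1r, Adgre1 and Cd68 mean as a covariate, or left out a sample; counts per list without a sample were added after seeing the data.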

Additional observations from a re-analysis of the deposited data

Results flagged for a closer look

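In the groups of 4 tumours, the lowest and the highest sample of each of the 35 genes was set against the others of its group (70 groups, of which chance marks about 1 in 20), and 2 samples stood apart. WT nulliparous replicate 2 had a Tyrobp value of 10.13, below the 10.54 to 10.61 of the other 3. WT parous replicate 2 had an Il1b value of 7.14, above the 6.69 to 6.75 of the other 3.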

How the results depend on the processing

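In WT mice, the count of members past the threshold between parous and nulliparous tumours was 1; it was 0 with dim genes left out, since Tnf is one of them, 0 with the mean of Csf1r, Adgre1 and Cd68 as a covariate, 2 with only the compared groups fitted (Tnf and Csf1) and 8 with array weights (with Csf1, Axl, Tyrobp, Fcgr1, Aif1, Cybb and Clec7a), and ran from 0 to 2 with a sample left out. Of all genes 478 passed, against 179 with the covariate, 878 with the compared groups alone and 1718 with weights, and 57 to 439 with a sample left out. With the covariate the median member difference was -0.16 in WT, and that of the parity difference 0.28. Since the covariate is made of members, smaller medians were built into that fit. The adjusted p of Tnf, 0.0342, ran from 0.00698 (weights) to 0.112. The median in KO mice without metastasis ran from -0.13 to 0.41 with a sample left out and was -0.05 with weights, and that of the parity difference ran from 0.43 to 0.99. Of the 42 single-gene results recomputed 2 changed sign. Il10 (0.14 in the metastasis comparison) turned to -0.05 without KO parous with metastasis replicate 1. It ran up to 0.14 without replicates of the tumours without metastasis. Mertk (-0.50) turned to 0.04 in the genotype comparison among parous mice without the averaged pair. The 42 were those with an unadjusted p under 0.05 by limma, some of the largest differences, the markers that exceed their SE, Plac8 and Cfb. Other printed differences, smaller than their SE, also turned with a sample left out. Examples are Csf1r, Adgre1, Cd68 and C1qa between parous and nulliparous KO tumours, without KO parous without metastasis replicate 2. Cd14 turned in the genotype comparison among parous mice without the averaged pair. With the replicate block 1 member passed by limma in WT (Tnf, adjusted p = 0.0464) and 368 genes in all, and Plac8 did not (adjusted p = 0.0518). The block changed no other call among the 42. With the covariate the median turned from -0.11 to 0.13 in the additive genotype comparison and from -0.10 to 0.08 among parous mice. The median r with Csf1r was 0.80 without the 2 farthest samples and 0.83 with group means subtracted. Groups of 1 to 4 tumours limit what can be detected, dim members are read near background, and with a group left at 1 sample that sample is assumed to vary like the others.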
